A study of Homo sapiens with 2 samples.

Results

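The regions described here are the called ATAC-seq peaks around SOX9 on human chromosome 17, in the gene, in the long stretches beside it that hold no other protein-coding gene, and in the nearest genes past those stretches. Every peak with its summit between 69 and 73 Mb of chromosome 17 (GRCh38) was taken from both deposited lists, and peaks that overlapped were merged. This gave 484 regions, from 255 sh-ctrl peaks and 403 sh-VNGD peaks, of 359137 regions on all assembled chromosomes. Of the 484, 152 lay left of the desert, among the genes from ABCA9 to KCNJ2, and 59 within SLC39A11 on the right. ATAC-seq uses the Tn5 transposase to insert sequencing adapters into open chromatin, so a peak marks accessible DNA and says nothing direct about RNA.

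The cells were U2OS, an established human osteosarcoma line, infected with a control hairpin (sh-ctrl) or with a hairpin (sh-VNGD) against VNGD, a long non-coding RNA also called Vanguard. There was 1 library per group from 1 line, so no difference below has a replicate check and no p-value is given. The knockdown itself could not be read from accessibility. After repeated positions were removed, 22931980 tags were kept for sh-ctrl and 31326715 for sh-VNGD, a ratio of 1.37, per the file headers.

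SOX9 encodes a DNA-binding protein of the SRY-related HMG-box family. It is known as the master regulator of cartilage formation, acts in testis determination and in the neural crest, and is one of the factors that separate the chondrocyte from the osteoblast fate. Its gene lies in a large gene desert, and enhancers far from the promoter, on both sides, drive its expression in different tissues. Chromosome breaks in the upstream desert are known to cause campomelic dysplasia and Pierre Robin sequence.

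The 4 sequences below are RefSeq promoters (GRCh38.p14, 250 bases before to 50 bases after the start of the transcript) of long non-coding RNA genes beside SOX9. They are shown because they set open promoters, those with a called peak, beside closed ones, those with none, within the same desert. LINC01152 (chr17:72030404-72030703, plus strand) and LINC00673 (chr17:72592755-72593054, minus strand) had a peak in both libraries. SOX9-AS1 (chr17:72115967-72116266, minus strand), the antisense neighbour of SOX9, and ROCR (chr17:72025930-72026229, minus strand), the "regulator of chondrogenesis RNA", had a peak in neither. The printed start of SOX9-AS1 lies inside that gene. Its outer end on the SOX9 side, where the minus strand begins, overlapped the region over the SOX9 start, which had a peak in both libraries. The SOX9-AS1 promoter is called closed here for the printed bases only. Capitals mark matches on either strand to 7 motifs: TGANTCA (AP-1), AACAAT (SOX), TGTGGT (RUNX), GGAATG (TEAD), GGGCGG (SP/KLF), CCAAT (NF-Y) and the CTCF core.
LINC01152: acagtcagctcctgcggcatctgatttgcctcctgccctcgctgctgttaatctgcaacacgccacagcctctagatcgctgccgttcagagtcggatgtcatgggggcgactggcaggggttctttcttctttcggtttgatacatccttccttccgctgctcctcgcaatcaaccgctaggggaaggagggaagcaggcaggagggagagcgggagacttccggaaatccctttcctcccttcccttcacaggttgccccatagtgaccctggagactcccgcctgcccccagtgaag
LINC00673: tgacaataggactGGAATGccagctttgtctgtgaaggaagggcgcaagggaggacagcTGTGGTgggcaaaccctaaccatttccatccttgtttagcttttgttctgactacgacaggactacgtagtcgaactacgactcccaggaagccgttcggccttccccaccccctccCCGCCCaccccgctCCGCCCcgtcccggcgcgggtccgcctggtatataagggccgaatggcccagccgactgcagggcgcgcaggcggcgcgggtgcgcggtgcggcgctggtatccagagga
SOX9-AS1: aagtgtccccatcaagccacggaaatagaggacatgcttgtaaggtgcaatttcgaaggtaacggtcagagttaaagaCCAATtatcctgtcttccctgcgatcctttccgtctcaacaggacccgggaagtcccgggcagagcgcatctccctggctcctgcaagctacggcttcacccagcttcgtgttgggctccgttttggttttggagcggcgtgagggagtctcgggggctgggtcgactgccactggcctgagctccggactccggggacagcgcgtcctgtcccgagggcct
ROCR: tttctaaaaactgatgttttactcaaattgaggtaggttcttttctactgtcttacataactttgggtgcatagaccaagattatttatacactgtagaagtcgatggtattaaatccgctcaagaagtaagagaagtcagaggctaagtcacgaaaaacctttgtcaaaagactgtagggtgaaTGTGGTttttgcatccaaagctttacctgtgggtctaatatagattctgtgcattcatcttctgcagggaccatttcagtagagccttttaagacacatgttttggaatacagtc

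The open LINC01152 promoter held no match, and the open LINC00673 promoter held 2 SP/KLF matches, 1 RUNX match and 1 TEAD match. The closed SOX9-AS1 promoter held 1 NF-Y match and the closed ROCR promoter 1 RUNX match. Over all 35116 RefSeq promoters of the same length, SP/KLF letters were present in 45.0%, NF-Y letters in 34.6%, TEAD in 14.0%, RUNX in 13.1%, SOX in 10.1%, AP-1 in 7.71% and the CTCF core in 2.41%. GC content was 58.7% for LINC01152, 63.3% for LINC00673, 59.3% for SOX9-AS1 and 37.3% for ROCR. GC content therefore did not by itself separate the open from the closed promoters among these 4. The printed SOX9-AS1 promoter, with no peak, was as GC-rich as the open LINC01152 promoter.

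Of the 33 promoters that the RefSeq table gives in the window, SOX9 not among them, 6 had a peak in both libraries, against 44.5% of all 35116 promoters. These were the promoters of ABCA5, MAP2K6, LINC01152, LINC00673, LINC00511 and LOC105371887, the last 2 of which share 1 region. Another 2, those of KCNJ2 and KCNJ2-AS1, had a sh-ctrl peak only. The 8 promoters with a peak in either library had a median GC content of 73.2% and a median of 34 CpG dinucleotides, and the 25 without a peak had 40.3% and 2. SP/KLF letters were present in 5 of the 6 promoters open in both libraries, against 45.0% of all promoters, but the LINC00511 and LOC105371887 promoters are almost the same bases read on opposite strands and share their match.

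At SOX9 itself (chr17:72121020-72126416 in RefSeq), 1 region covered the start of the gene, at chr17:72120354-72121344, and also overlapped the outer end of SOX9-AS1. Its summit pileup, the number of tags covering the summit, was 84 in the control and 98 after the VNGD hairpin. The summits lay at positions 72120933 and 72120946, just before the start of the gene. The fold enrichment over the surrounding 10000 bp, the authors' own value for each peak, was 13.9 for the sh-ctrl peak and 14.7 for the sh-VNGD peak. The SOX9 promoter was thus open in both libraries at nearly the same position and height.

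The scaled log2 ratio divides each pileup by the kept tags of its library, and is given as sh-VNGD over sh-ctrl with an exact Clopper-Pearson 95% interval that covers counting error only. For the SOX9 promoter it was -0.23 (-0.66 to 0.21). The median over all 152097 regions of the genome with a peak in both libraries was -0.26. Relative to that median the SOX9 promoter stood at 0.03 (-0.41 to 0.47), and relative to the median of protein-coding gene ends, -0.45, it stood at 0.22 (-0.21 to 0.66). All of these intervals include 0. Unscaled, the promoter ratio was 0.22, and by the authors' fold enrichment it was 0.09, so the sign of the difference at the promoter depends on the scaling.

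Among the 13914 protein-coding genes with a ratio at an outer gene end, 62.0% had a lower scaled pileup than SOX9 and 77.1% a lower ratio. The median gene end had a pileup of 75 in sh-ctrl and 73 in sh-VNGD. The SOX9 promoter was thus a gene end of ordinary to somewhat above median height. Within the window it ranked 9 of 484 by mean scaled pileup.

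Within 20 kb of the gene lay other, lower regions. Inside SOX9, the region at chr17:72121521-72122097 had 22 sh-ctrl tags against 27 in sh-VNGD, with a relative log2 ratio of 0.10 (-0.76 to 0.98). The region just past the end of the gene, at chr17:72126573-72127026, had 31 and 29 tags, and its neighbour at chr17:72127098-72127502 had 11 and 10. Upstream, a region 12.1 kb before the start, inside SOX9-AS1, had 12 and 13 tags. These regions were present in both libraries at pileups that differed by no more than 5 tags.

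The remaining regions close to SOX9 were at low pileup and mostly called in 1 library. A peak 10.1 kb upstream was called in sh-VNGD only, with 14 tags, and peaks 13.6 kb and 21.5 kb downstream were called in sh-ctrl only, with 15 and 12 tags. Peaks 15.9 kb and 21.8 kb downstream were called in sh-VNGD only, with 16 and 14 tags. The region 13.8 kb downstream had 7 sh-ctrl tags against 10 in sh-VNGD. A peak missing from a list is one that was not called there, and tags may still be present.

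**Figure D1:**
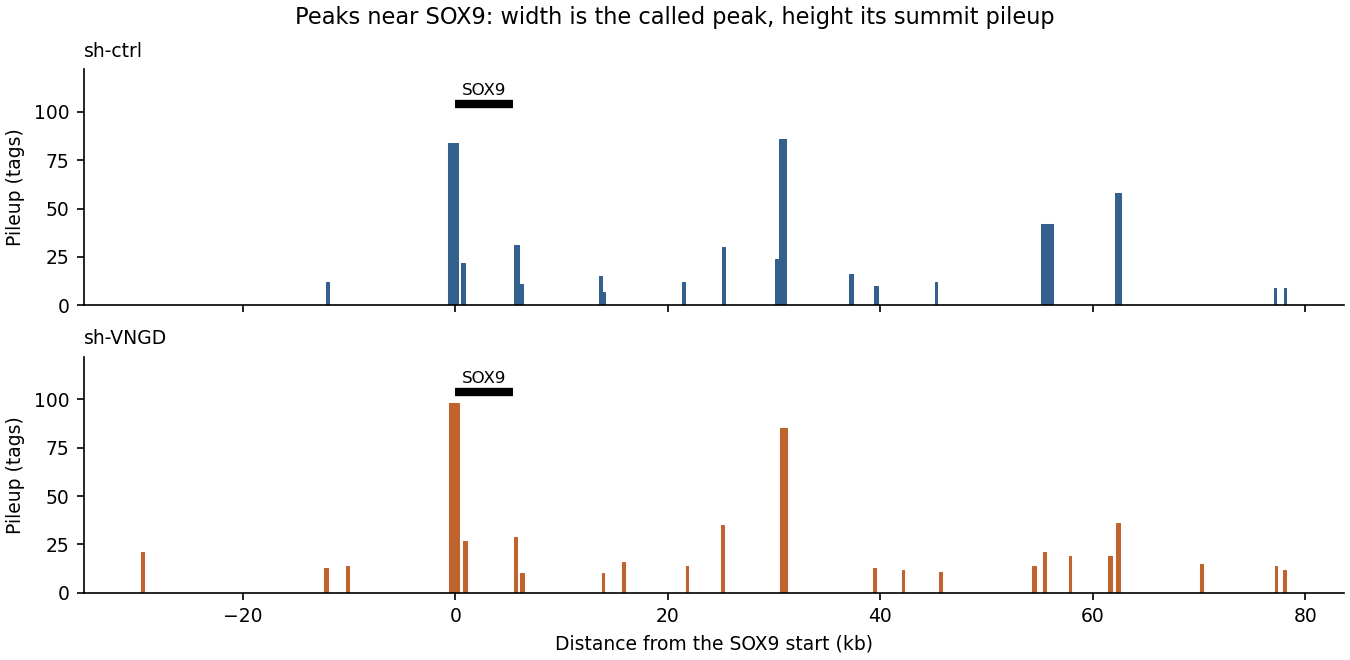
Called peaks from 30 kb before to 80 kb after the SOX9 start in sh-ctrl (upper panel) and sh-VNGD (lower panel). The horizontal axis is the distance from the SOX9 start in kb, the vertical axis the unscaled pileup at the summit in tags, bar width the called peak, and the black bar the gene. The tallest bars are the SOX9 promoter (84 and 98 tags) and the region 30.8 kb downstream (86 and 85 tags).

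A distal region 30.8 kb downstream, at chr17:72151469-72152233, was as high as the promoter, with 86 sh-ctrl tags against 85 in sh-VNGD and a relative log2 ratio of -0.21 (-0.66 to 0.24). It lies outside any RefSeq gene. A shoulder peak beside it, at chr17:72151142-72151404, was called in sh-ctrl only, with 24 tags and a fold enrichment of 4.03. Between this pair and the gene, the region 25.2 kb downstream had 30 sh-ctrl tags against 35 in sh-VNGD.

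Over the whole window, 174 regions (36.0%) were shared by the libraries, 81 (16.7%) were called only in sh-ctrl, and 229 (47.3%) only in sh-VNGD. On all chromosomes these shares were 42.4%, 16.5% and 41.2%. The window held 1.58 times as many sh-VNGD as sh-ctrl peaks, against 1.42 times genome-wide, with 1.37 times as many kept tags. The median region was 253 bp wide, and 215 regions (44.4%) lay outside any RefSeq gene. In the shared regions the summits of the libraries lay a median of 27.5 bp apart.

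Of the sh-ctrl peaks of the window, 68.2% met a sh-VNGD peak by at least 1 bp (62.3 to 73.6, Wilson 95% interval), against 72.2% of all sh-ctrl peaks. Of the sh-VNGD peaks, 43.2% (38.4 to 48.1) overlapped a sh-ctrl peak, against 51.1%. Sharing went with height. All 17 sh-ctrl peaks and all 16 sh-VNGD peaks that reached 50 tags were shared, and under 15 tags the shares were 59.5% and 28.8%. The sh-ctrl-only regions had a median of 11 tags and the sh-VNGD-only regions a median of 14.

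**Figure D2:**
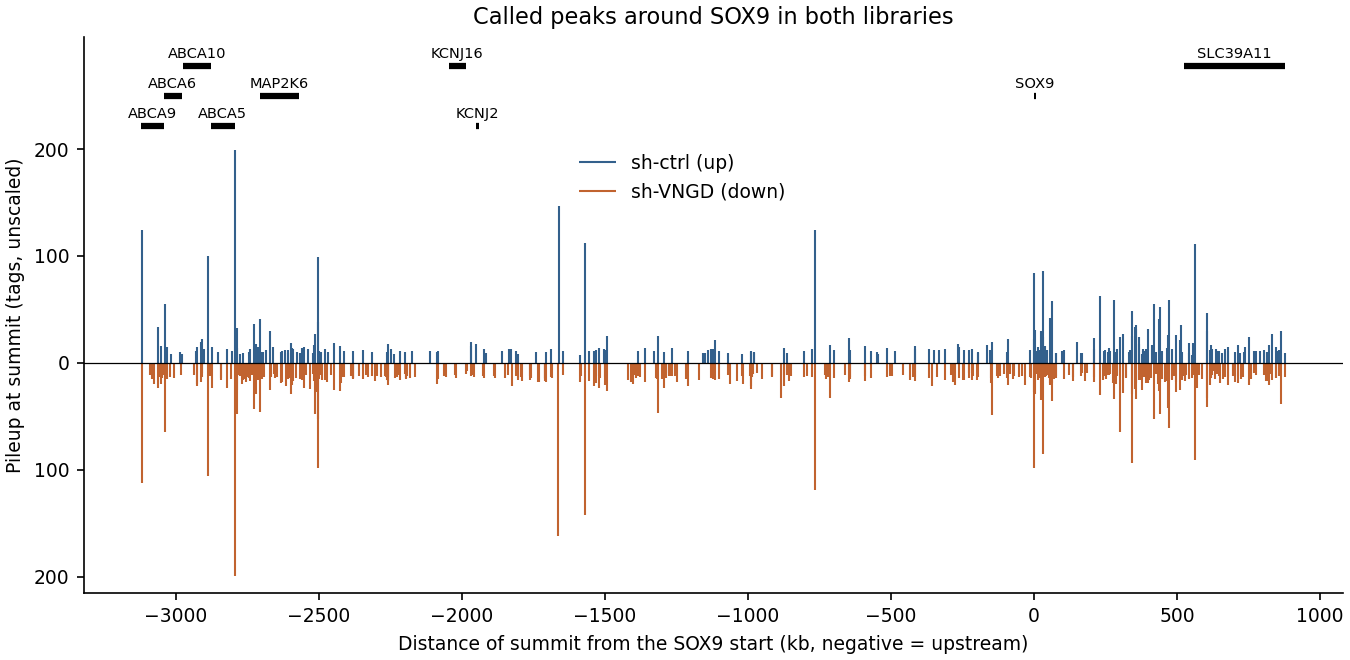
Summit pileup in tags, unscaled, of every called peak in the window, sh-ctrl upward and sh-VNGD downward, against the distance of the summit from the SOX9 start in kb. Black bars are protein-coding genes. The upstream desert shows 3 isolated tall regions in both libraries, at 147 and 162, 112 and 142, and 124 and 119 tags, while tall regions are more closely spaced downstream of SOX9.

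The upstream desert, the 1.94 Mb between the end of KCNJ2 (a potassium channel gene) and the SOX9 start, was sparse. It held 169 regions, of which 53 were shared, 24 were specific to the sh-ctrl list and 92 to the sh-VNGD list. On all chromosomes 42.4% of regions were shared, 16.5% were sh-ctrl only and 41.2% sh-VNGD only. There were 77 sh-ctrl peaks (39.7 per Mb) and 145 sh-VNGD peaks (74.7 per Mb), a ratio of 1.88. That ratio was 1.42 genome-wide and 1.58 over the megabases without a protein-coding gene. Of the peaks of this stretch, 68.8% (sh-ctrl) and 36.6% (sh-VNGD) overlapped the other library, against 72.2% and 51.1% genome-wide. Few were high, with 4 sh-ctrl and 8 sh-VNGD peaks at a pileup of 30 or more, the SOX9 promoter included. The longest stretch without a peak in either library ran for 74.9 kb, from position 70628806 to 70703665.

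Most regions of the upstream desert were low, with median pileups of 12 and 14, and 3 distal ones stood out as tall. The highest of these lay 1.66 Mb before SOX9, at chr17:70458896-70459781 inside the uncharacterised gene LOC124904100, with 147 sh-ctrl tags against 162 in sh-VNGD. A region 1.57 Mb upstream (chr17:70549987-70550902) had 112 and 142 tags, and a region 764 kb upstream (chr17:71357146-71357889) had 124 and 119. Their relative log2 ratios were -0.05 (-0.38 to 0.28), 0.15 (-0.22 to 0.52) and -0.25 (-0.63 to 0.12), all with 0 inside the interval. These 3 regions were higher in tags than the SOX9 promoter in each library.

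Of the 53 shared regions of the upstream desert, 43 (81.1%) had more tags in sh-VNGD before scaling and 7 (13.2%) had fewer. Among all shared regions of the genome these shares were 63.9% and 30.7%. Scaled to kept tags, the median log2 ratio of the 53 was -0.15, against -0.26 genome-wide. The 3 lower regions named next were picked because their ratios were among the highest of the window at a pileup of 30 or more in either library. The region 145 kb upstream (chr17:71976021-71976475) had 20 sh-ctrl tags against 49 in sh-VNGD, a relative log2 ratio of 1.10 (0.32 to 1.93), and 0.93 by fold enrichment. The region 1.31 Mb upstream had 25 and 47 tags (relative ratio 0.72, -0.01 to 1.48). The region 712 kb upstream had 17 and 33 tags (0.76, -0.12 to 1.70). Of these 3, the interval of the first alone lay above 0. The highest sh-VNGD-only peak of the window also lay here, 883 kb upstream (chr17:71237874-71238171), with 33 tags.

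Close to SOX9 on the upstream side, the LINC01152 promoter printed above, 90.4 kb from the gene, was the highest region from 10 to 100 kb in tags scaled to depth. It had 22 sh-ctrl tags against 21 in sh-VNGD, with a relative log2 ratio of -0.26 (-1.19 to 0.67). Of the 10 regions at 10 to 100 kb upstream, 3 were shared and 7 were called in sh-VNGD only. On the downstream side the same distance held 22 regions, of which 8 were shared. On all chromosomes 42.4% of regions were shared and 41.2% were called in sh-VNGD only.

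**Figure D3:**
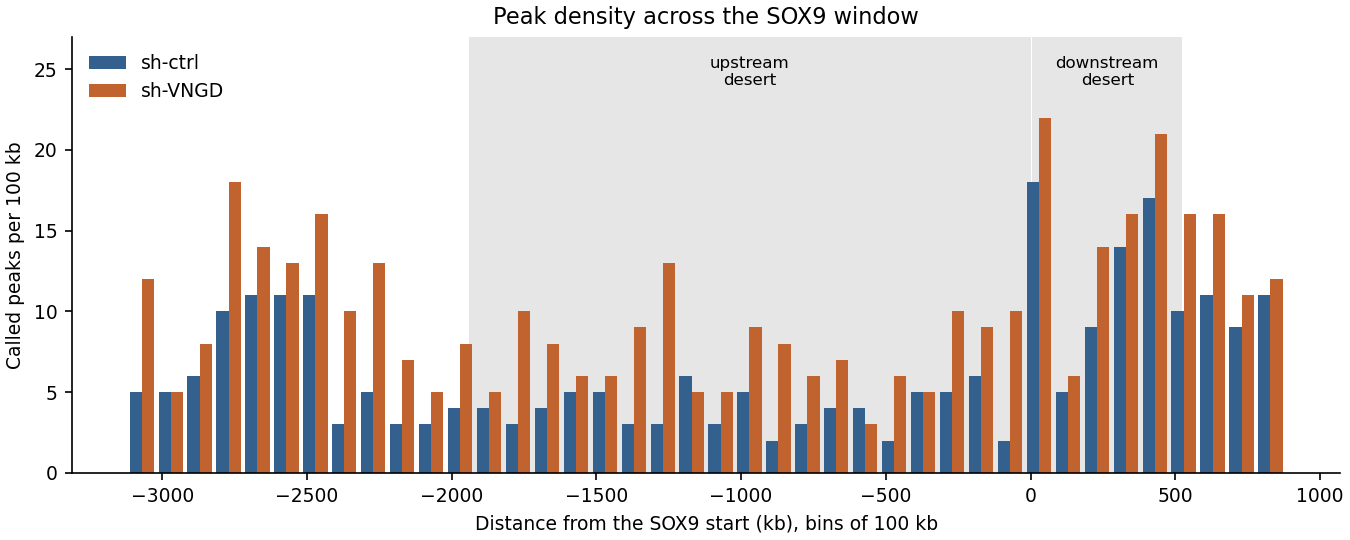
Called peaks per 100 kb (vertical axis) for sh-ctrl and sh-VNGD along the window, by distance from the SOX9 start in kb. Grey shading marks the upstream and downstream deserts. The bin holding SOX9 has 18 sh-ctrl and 22 sh-VNGD peaks, and the bin just upstream of it 2 and 10.

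The downstream desert, the 519.5 kb from the end of SOX9 to SLC39A11 (a zinc transporter gene), was denser in peaks. Of its 103 regions, 45 were shared, 20 were found only in the sh-ctrl list and 38 only in the sh-VNGD list. On all chromosomes 42.4% of regions were shared, 16.5% were sh-ctrl only and 41.2% sh-VNGD only. There were 65 sh-ctrl peaks (125 per Mb) and 83 sh-VNGD peaks (160 per Mb), a ratio of 1.28, against 1.42 genome-wide. Of these peaks, 69.2% (sh-ctrl) and 54.2% (sh-VNGD) overlapped the other library, against 72.2% and 51.1% genome-wide. The sh-ctrl list had 17 peaks that reached 30 tags and the sh-VNGD list 12, so the high peaks were more numerous in sh-ctrl here and in sh-VNGD upstream. On all chromosomes 51950 sh-ctrl and 59499 sh-VNGD peaks reached 30 tags, a cutoff not scaled for depth. Whether the sides differ beyond the spread between cultures could not be tested with 1 library per group.

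The lowest ratios of the window at this height lay on the downstream side. The region 231 kb downstream (chr17:72351700-72352605), inside the non-coding gene LINC02003, had 63 sh-ctrl tags against 30 in sh-VNGD, a relative log2 ratio of -1.26 (-1.94 to -0.61). The region 55.5 kb downstream (chr17:72176103-72177269) had 42 and 21 tags (-1.19, -2.02 to -0.40), and the region 279 kb downstream (chr17:72399235-72400086) had 59 and 34 (-0.99, -1.64 to -0.36). Regions 357 kb and 398 kb downstream, both inside LINC00673, each had 32 and 19 tags (-0.94, -1.85 to -0.08). These were the 5 lowest ratios of the window among shared regions with a pileup of 30 or more in either library.

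In these 5 regions the tags within 10 kb, as implied by pileup and fold enrichment, were also fewer in sh-VNGD. That stretch holds the peak itself, so a lower peak also lowers this count. Their relative log2 ratios for the tags within 10 kb were -1.13, -1.10, -0.74, -0.54 and -0.57, in the order given above. In the first of them, 231 kb downstream, the sh-VNGD value was at the genome-wide floor. By fold enrichment, which divides by those tags, the relative ratios were -0.48, -0.37, -0.47, -0.57 and -0.54. The direction was thus the same by fold enrichment, and no region of the 5 was 2-fold lower on that scale. What part the tags around each peak play in the summit differences was not tested, and the copy number of these stretches, in a line known to be aneuploid, was not analysed here.

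LINC00673 also held regions with an excess in sh-VNGD. The region 300.3 kb downstream (chr17:72421192-72421602) had 24 sh-ctrl tags against 65 in sh-VNGD, a relative log2 ratio of 1.24 (0.55 to 1.98), and 0.97 by fold enrichment. The region 345 kb downstream (chr17:72465489-72465916) had 49 and 94 tags (0.75, 0.23 to 1.28). Both are in the body of the transcript, and the LINC00673 promoter printed above had 59 sh-ctrl tags against 61 in sh-VNGD (-0.14, -0.68 to 0.40). Regions with more and with fewer tags in sh-VNGD therefore lay within the same long non-coding gene, whose promoter differed by less than its counting interval.

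Single-library peaks on this side were low with 1 exception. A sh-ctrl-only peak 514 kb downstream, inside LINC00511 (chr17:72634646-72635058), had 35 tags and a fold enrichment of 10.8. It was the highest single-library peak of the window. Other sh-ctrl-only peaks lay 368 kb downstream (24 tags) and 150 kb downstream (20 tags), and 1 lay 1.97 Mb upstream of SOX9 (20 tags).

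**Figure D4:**
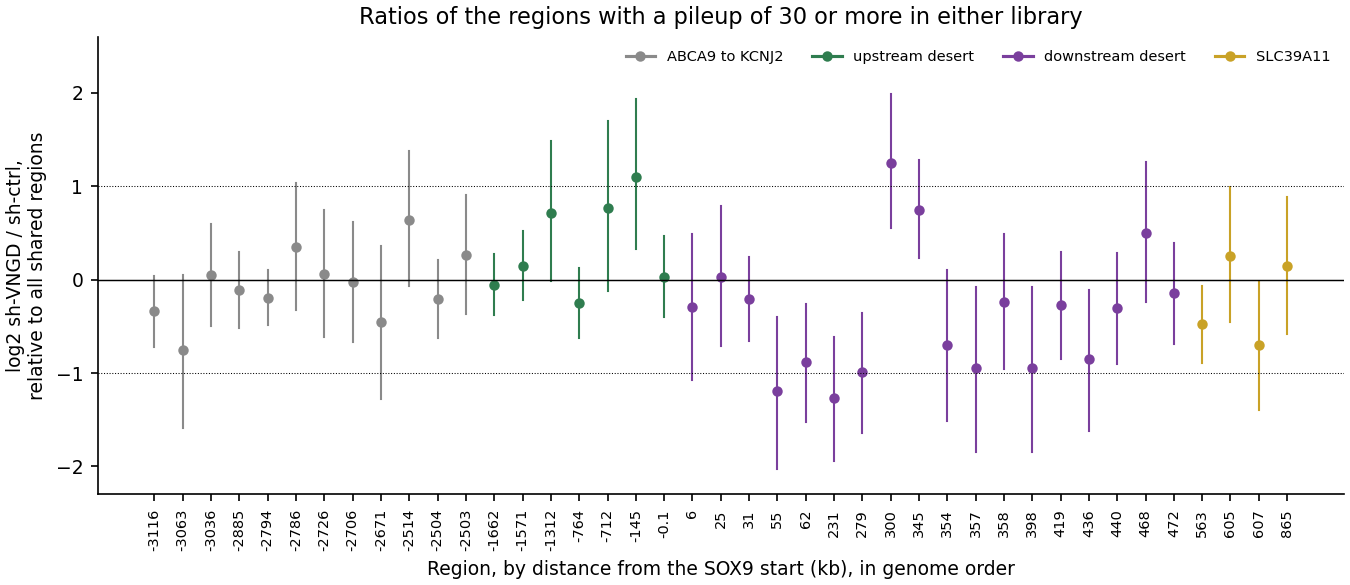
Relative log2 ratio of sh-VNGD over sh-ctrl (vertical axis, 0 is the median of all shared regions of the genome) for the 41 shared regions with a pileup of 30 or more in either library, in genome order and marked by distance from the SOX9 start in kb. Lines are exact 95% intervals for counting error, and dotted lines mark 2-fold. The lowest points, at -1.26 and -1.19, and the highest, at 1.24, are downstream of SOX9.

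Counting the whole window, 2 of 174 shared regions (1.15%) were 2-fold or more lower in sh-VNGD relative to all shared regions, against 3.03% of all shared regions of the genome. In the other direction, 6 (3.45%) were 2-fold or more higher, against 2.25%. Intervals lay wholly below the genome median in 10 regions (5.75%, against 7.41%) and wholly above it in 4 (2.30%, against 2.82%). Among the 41 shared regions with a pileup of 30 or more in either library, 2 were 2-fold lower (4.88%, against 5.72%) and 2 were 2-fold higher (4.88%, against 3.02%). The scaled ratio was below 0 in 119 of the 174 (68.4%, against 71.3%). The window as a whole was therefore close to the background, and its median scaled ratio of -0.20 was close to the genome median of -0.26.

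The 10 regions with an interval below the genome median all lay on the downstream side of SOX9, 7 in the downstream desert and 3 in SLC39A11. Centred on regions of like pileup, a check added after the data were seen, there were again 10, but 7 lay in the downstream desert, 1 in SLC39A11 and 2 among the genes left of the desert. Among the 18 shared regions of the downstream desert with a pileup of 30 or more in either library, 7 (38.9%) had an interval wholly below the genome median, against 17% of all regions of that height, and 2 (11.1%) wholly above it, against 5.82%. With that centring the counts were again 7 below, against 11.5%, and 2 above, against 7.23%. Before any scaling, 13 of the 18 had fewer tags in sh-VNGD and 5 had more, against 41.6% with fewer and 56.2% with more among all 61389 shared regions of that height. The filter, the same genome-wide, uses the tags that these counts compare. Of the 7 wholly below, those 55.5, 357, 398 and 436 kb downstream reached 30 tags in sh-ctrl only. So did the regions 5.71 and 354 kb downstream, while those 300.3 and 468 kb downstream reached it in sh-VNGD only. Among the 7 such regions of the upstream desert, none was wholly below the genome median, 1 was wholly above it, and 6 of 7 had more tags in sh-VNGD before scaling. Centred on like pileup, 3 of these 7 (42.9%) were wholly above, against 7.23%. The regions 145 kb, 712 kb and 1.31 Mb upstream reached 30 tags in sh-VNGD only, and the others in both libraries. The first and last of these are among the 3 wholly above. The filter therefore favoured more sh-VNGD tags here, and these counts do not show a shift of the upstream desert. Median relative ratios over all shared regions were 0.11 upstream and -0.14 downstream. With 1 library per group these counts describe the libraries and not the conditions.

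**Figure D5:**
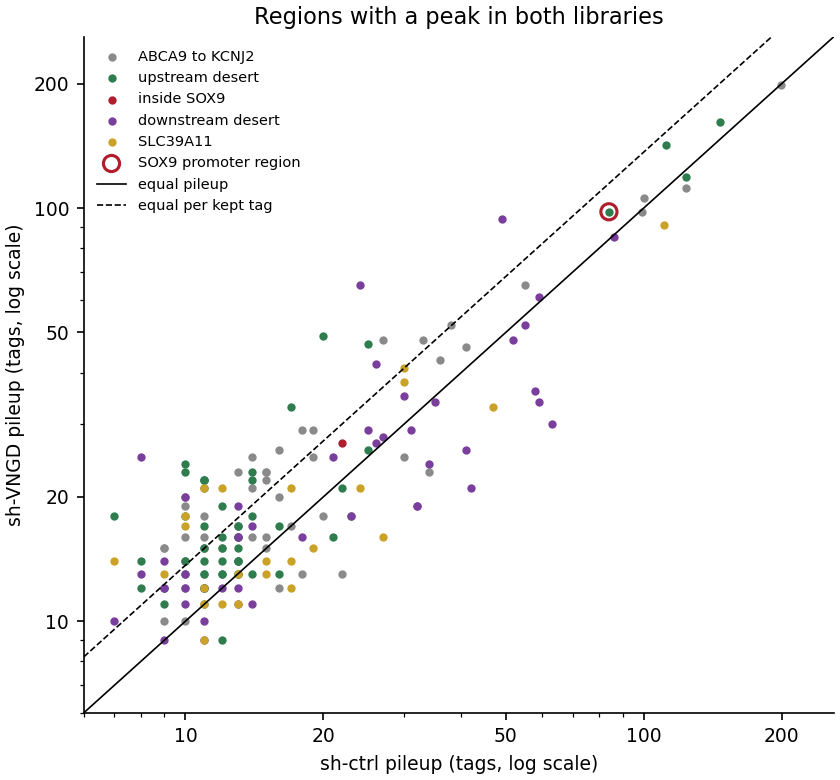
Summit pileup in tags of the 174 shared regions, sh-ctrl on the horizontal and sh-VNGD on the vertical axis, both on log scales, coloured by stretch. The solid line is equal pileup and the dashed line equal pileup per kept tag. Regions that averaged at least 50 tags sit near the solid line (median unscaled log2 ratio 0), the circled SOX9 promoter among them.

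The ratio differed with height, though not steadily. In the 15 shared regions that averaged at least 50 tags, the median scaled log2 ratio was -0.45, and genome-wide it was -0.46 at that height. In the 78 regions that averaged under 15 tags the median was -0.19, and it was -0.19 genome-wide too. Between 15 and 30 tags the median was -0.13, against -0.15 genome-wide. The window followed the rest of the genome in this, and the SOX9 promoter, at -0.23, lay above the median of its height class with 0.24 (-0.19 to 0.68) relative to regions of like pileup.

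Local background in the window, genes included, was low. The tags within 10 kb were at the genome-wide floor for 58.0% of sh-ctrl and 65.0% of sh-VNGD peaks of the window, against 39.6% and 40.2% of all peaks. The megabase from 71 to 72 Mb, which holds no protein-coding gene, had 39 sh-ctrl and 68 sh-VNGD peaks. The 291 such gene-free megabases of the genome had medians of 36 and 57, and all 2933 megabases had medians of 69 and 100. This megabase of the upstream desert thus had about as many peaks as other gene-free megabases, whereas the downstream desert, at 125 and 160 per Mb, had more than the median of either kind. Over all 291 gene-free megabases there were 1.58 times as many sh-VNGD as sh-ctrl peaks.

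Among the genes left of the desert, tall regions also lay away from gene ends. A region in ABCA9 (chr17:69004393-69005207) had 124 and 112 tags (relative ratio -0.34, -0.72 to 0.04), 1 in ABCA10 (chr17:69235332-69235847) had 100 and 106 (-0.11, -0.52 to 0.30), and 1 in the non-coding gene LINC01483 (chr17:69617161-69617706) had 99 and 98 (-0.21, -0.63 to 0.21), sh-ctrl first. All 3 intervals include 0. The next highest sh-VNGD-only peaks of the window were in LINC01483 (27 tags), 2.53 Mb upstream of SOX9 outside any gene (24 tags), and in SLC39A11 (23 tags). A further 3 had 22 tags each, in MAP2K6 and, outside any gene, 1.82 Mb and 356 kb upstream of SOX9.

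The protein-coding neighbours mark the edges of the desert. ABCA5, a lipid transporter gene, had the highest region of the window at its promoter (chr17:69326100-69327670), with 199 tags in both libraries. MAP2K6, a kinase of the p38 pathway, had 41 sh-ctrl tags against 46 in sh-VNGD at its promoter, and a sh-VNGD-only peak of 12 tags just before it. KCNJ2, the upstream neighbour, had a sh-ctrl peak only, with 18 tags, and no peak was found at the ends of KCNJ16 or ABCA10. The shared end of ABCA9 and ABCA6 had a sh-VNGD peak only, with 11 tags. SLC39A11, the downstream neighbour, had 80 and 85 tags at its far end (chr17:73092521-73093074), past the edge of the window, and a region 563 kb downstream of SOX9 in its body (chr17:72683813-72684502) had 111 and 91 (relative ratio -0.48, -0.90 to -0.07). That difference was not kept by fold enrichment (0.05) or against regions of like pileup (-0.25, -0.66 to 0.16). Of the genes next to SOX9, KCNJ2 therefore had a low peak in 1 library, while SOX9 was open in both.

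Genes that work with SOX9 were looked up within 1000 bp of their outer gene ends. The end with the higher pileup was used, and at that end the highest region called in both libraries where there was one, with ratios relative to the median gene end (-0.45). The end used can be the start or the far end of a gene, so it is not always the promoter. Among its relatives, the SoxE factors SOX8 and SOX10 and the SoxD factors SOX5, SOX6 and SOX13, 3 of 5 were open in both libraries, against 69.9% of 20033 protein-coding genes. SOX6, a SoxD partner of SOX9 on cartilage enhancers, had 142 sh-ctrl tags against 132 in sh-VNGD (relative ratio -0.11, -0.46 to 0.25), and SOX13 had 181 and 154 (-0.23, -0.55 to 0.08). SOX8 had 15 and 17 tags (0.18, -0.91 to 1.29), SOX5 had a sh-VNGD peak only with 13 tags, and SOX10 had no peak at either end. SOX6 and SOX13 thus had higher pileups than the SOX9 promoter, and no interval in this family left 0.

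Cartilage matrix and chondrocyte genes, known targets of SOX9 among them, mostly had no peak at their outer ends. Of 26 listed genes 8 were open there in both libraries, against 69.9% of all protein-coding genes. A further 3 were called only in sh-VNGD (COL9A1 with 10 tags, COL10A1 with 16 and CHADL with 17). The other 15 had a peak in neither, among them COL2A1, the type II collagen gene. Outer ends can miss an inner promoter. COL27A1, 1 of the 15, had 47 and 61 tags at its RefSeq promoter, and COL2A1 is not in the promoter table. ACAN, which encodes aggrecan, had 15 sh-ctrl tags against 10 in sh-VNGD (relative ratio -0.58, -1.90 to 0.67), and COL9A2, a type IX collagen gene, had 20 and 14 (-0.51, -1.61 to 0.54). The highest ratios were those of PAPSS2, a sulfate-donor enzyme, with 10 and 23 tags (1.20, 0.07 to 2.44), and MATN3, a matrilin, with 17 and 35 (1.04, 0.17 to 1.97). The median relative ratio of the 8 was 0.45. Intervals of 3 of the 8, those of PAPSS2, MATN3 and CCN2, lay wholly above 0 and of none below, against 4.22% and 4.44% of all gene ends. These 8 were low, with median pileups of 20.5 and 39, where the median gene end had 75 and 73. Regions genome-wide that averaged 15 to 20 tags had a median scaled log2 ratio of -0.13, and from 20 to 30 tags -0.16. The scaled intervals of PAPSS2 (-0.38 to 1.99) and MATN3 (-0.28 to 1.52) include these values, so both depend on the centring. That of CCN2 (-0.20 to 1.41) lies above the -0.31 of regions from 30 to 50 tags. For CCN2 the ratio depends on which of the neighbouring regions is read.

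Genes of the signals known to act on SOX9 and on chondrogenesis were mostly open and near the background. Of 37 genes 27 were open at an outer end in both libraries, against 69.9% of all protein-coding genes. Another was open only in sh-VNGD (PTCH1, the hedgehog receptor, 9 tags) and 9 in neither. Outer ends miss promoters inside a gene. By promoter windows of 300 bases, a reading added after the data were seen, 27 of the 31 genes in the promoter table were open in both libraries. None was open in 1 library only, and PTCH1 had 42 and 37 tags and RUNX2 38 and 43. Of all promoters, counted per promoter and not per gene, 44.5% were open in both libraries. At the outer ends the median relative ratio of the list was -0.10 by pileup and 0.05 by fold enrichment, and no interval by pileup lay wholly to 1 side of 0. The lowest were the BMP receptor genes BMPR1B, with 50 sh-ctrl tags against 35 in sh-VNGD (-0.51, -1.18 to 0.14), and BMPR1A, with 72 and 51 (-0.50, -1.04 to 0.04). The highest were the genes of 2 BMP signal transducers, SMAD5 with 40 and 55 tags (0.46, -0.15 to 1.08) and SMAD1 with 73 and 97 (0.41, -0.04 to 0.87).

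Marker genes of cell types were read the same way to check the labelled line. Of 9 osteoblast and mesenchymal markers 5 had a peak at an outer end in both libraries, against 69.9% of all protein-coding genes. Among the 5 were COL1A1 (94 sh-ctrl tags against 75 in sh-VNGD) and SP7 (48 and 43). Another (ALPL) was open only in sh-VNGD, and 3 (RUNX2, SPARC and VIM) had no peak there. Ratios of the 5 went both ways, as FN1 had 88 and 44 tags (relative ratio -1, -1.56 to -0.46) and TWIST1 12 and 41 (1.77, 0.82 to 2.84). The FN1 value is from the end opposite its RefSeq promoter. The FN1 promoter window had 31 and 19 tags. By promoter windows ALPL had a peak in both libraries (14 and 11 tags), as did RUNX2, so a call at the outer ends does not show a marker closed. SPARC and VIM, however, had no peak by promoter windows either. Of 5 chondrocyte markers 2 had a peak in both libraries. Epithelial (4 of 5) and haematopoietic markers (4 of 5) often had one too, so open gene ends do not by themselves identify the cell type.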

How the data were processed

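ATAC-seq was performed on U2OS cells with a control hairpin or a hairpin against VNGD, 1 library each, grouped by the treatment in the labels. Per the file headers, peaks were called with MACS 2.1.0.20150731 on each library without a control, tags shifted by 100 bp and extended to 200 bp, 1 tag per position kept, q cutoff 0.05 and a local window of 10000 bp. Per the submitters' processing notes, the tools included MACS2 2.1.2, Bowtie2 2.2.5 and deepTools, and the builds GRCh38.p13 and hg38. Before that step 51628228 (sh-ctrl) and 48164322 (sh-VNGD) tags were read, 0.56 and 0.35 of them redundant. As deposited, the pileup signal is in whole tags and not scaled for depth. The authors also deposited, per peak, −log10 values of p and q and the fold enrichment, a ratio of pileup to local background, which here describe and filter peaks within a list.

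Peaks with summits in the window were merged at 1 bp of overlap (Python 3.11.15, pandas 2.3.3, scipy 1.17.1). The ratio was the log2 of the highest pileups in a region, each divided by kept tags, centred on the median of all shared regions. Its exact interval covers counting error only, and tags are not independent of PCR. The ratio was tested on simulated counts. Genes came from RefSeq GRCh38.p14, matched by outer bounds. All promoters, with strand, came from its promoter table.

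The members and lists were chosen with earlier results of these data known. Regions named were those within 20 kb of SOX9, the 10 highest, the 5 lowest and 5 highest ratios at a pileup of 30 or more, the 5 highest of each library alone, gene ends, and the highest of each distance band. List genes named were the 2 lowest and 2 highest ratios, single-library members and fixed names. Alternatives covered scaling, fold enrichment, tags within 10 kb, stricter calls and overlaps, and 2 were added after seeing the data: centring on like pileup, and promoter windows of 300 bases. Motifs at distal regions were not analysed here.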

Additional observations from a re-analysis of the deposited data

How the results depend on the processing

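With equal numbers of peaks genome-wide, the shared share in the window was 54.9% for sh-ctrl (68.2% otherwise) and 50.7% for sh-VNGD (43.2%). A stricter q cutoff, an overlap of at least 50% of both peaks, or summits within 200 bp moved neither share by more than its interval. The median log2 ratio of the window was -0.20 and reversed to 0.25 without scaling to kept tags. It was -0.040 by fold enrichment, -0.45 at a pileup of 30 or more, and -1.01e-06 for the tags within 10 kb, where most peaks are at the floor in both libraries. The number of regions 2-fold lower, 2, became 0 by fold enrichment (1.09% genome-wide) and 6 against like pileup (3.18% genome-wide). It became 10 uncentred, a setting for which no genome-wide share was taken. The number 2-fold higher, 6, became 2 by fold enrichment (0.925% genome-wide), 2 at a pileup of 30 or more (3.02%) and 4 against like pileup (1.56%). It became 1 uncentred. Against like pileup more regions were lower than higher, in the window as genome-wide. The SOX9 promoter ratio was -0.23, or 0.22 unscaled. The list of regulators moved from -0.10 to 0.05 by fold enrichment. The cause of these changes was not tested, beyond the construction of each setting. No paired analysis was possible because each group holds 1 library. Leaving out a replicate was not possible for the same reason.

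Depth limits the low regions most, as 1.29 Mb upstream of SOX9, where 10 against 23 tags gave a relative ratio of 1.01 (-0.12 to 2.24). Tags kept differ by 1.37 times between libraries and peaks in the window by 1.58 times; how far the first sets the second was not tested.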

Other observations

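Some peaks counted in 1 library only lie directly beside a peak of the other. The sh-ctrl-only peak 21.5 kb downstream of SOX9 ended at position 72142607 and the sh-VNGD-only peak beside it began at 72142725. The sh-ctrl-only peak 13.6 kb downstream ended at 72134793, and the region beginning at 72134804 held a peak of both libraries. Merging by overlap counts such neighbours apart.

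CCN2, a matricellular protein gene and one of the 3 cartilage-list genes whose interval lay above 0, had a ratio that rests on the choice of region. The region used had 21 sh-ctrl tags against 43 in sh-VNGD. The region over its RefSeq start (chr6:131951220-131951626) had 72 sh-ctrl tags and no called sh-VNGD peak. By promoter windows of 300 bases, chosen after seeing the data, 4 of the 21 cartilage-list genes in the promoter table were open in both libraries. Another 2 were open only in sh-ctrl and 1 only in sh-VNGD. Of all promoters, counted per promoter and not per gene, 44.5% were open in both libraries. The median relative ratio of the 4 genes was 0.33, still centred on the median outer gene end.

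Among regions under a pileup of 30, the largest excess in sh-VNGD was in LINC00673, 377 kb downstream of SOX9, with 8 sh-ctrl tags against 25 in sh-VNGD (relative log2 ratio 1.45, 0.26 to 2.81). This region was singled out after its values were seen.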
